A study of Mus musculus with 4 samples.

Results

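The genes described here are 50 genes of DNA replication and of the passage from G1 into S phase that were chosen by name. All 50 are listed among the 45706 genes of the count table, and all 50 were among the 18763 genes tested because their mean over the 4 lungs reached 5 counts. The lungs were untreated left lobes taken at E17 from C57BL/6 embryos, 2 wild-type and 2 Myh10L458R/L458R. *Myh10* encodes the heavy chain of nonmuscle myosin II-B, and Myh10L458R/L458R embryos are homozygous for an allele from an ENU mutagenesis screen in which 1 amino acid is replaced, in every cell of the animal rather than in a chosen cell type. Because the allele is a substitution, the *Myh10* read count does not check the genotype of a lung. The mRNA of each lobe was sequenced as 1 library, and each lung is from its own embryo.

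DNA is copied once per division because replication is licensed and started at separate times. In G1 the origin recognition complex, CDC6 and CDT1 load the MCM helicase onto DNA, and in S phase CDC45, the GINS complex and MCM10 turn it into an active helicase that polymerases, the sliding clamp PCNA and strand-processing enzymes follow. E2F transcription factors, held back by retinoblastoma proteins until cyclin-dependent kinases release them, switch on many of these genes at the G1/S boundary, and in the fetal lung the genes mark cells that are still dividing while the epithelium, mesenchyme and vessels grow.

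The promoters of the genes were searched for words bound by E2F factors. Because E2F factors switch on many such genes, a share above that of all genes was likely from the choice by name. RefSeq promoters on GRCm38.p6, from 250 bases before to 50 bases after the start, were found for 40 of the 50 genes. At least 1 of the words TTTCCCGC, TTTCGCGC, TTTGCCGC or TTTGGCGC, on either strand, was present for 17 of these 40 genes (42.5%), and for 704 of the 27025 genes of the promoter table (2.6%). The CCAAT word, bound by NF-Y, was present for 25 of the 40 (62.5%) against 41.1% of all genes. The word TTTGAA, the cell cycle homology region of many genes used in mitosis, was present for 6 of the 40 (15%) against 20.2%. The 17 genes with an E2F word were *Cdc6*, *Cdt1*, *Clspn*, *Dnmt1*, *E2f2*, *Gins3*, *Lig1*, *Mcm3*, *Mcm5*, *Mcm6*, *Mcm7*, *Orc1*, *Pola1*, *Pold1*, *Pole2*, *Rfc3* and *Uhrf1*. Promoters of the genes had a median GC content of 59.2%, against 52.7% for the table. These are matches of letters, and binding was not measured.

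The promoters of 4 genes are printed from 5′ to 3′ with the E2F words in capitals. *Mcm6* has the most words of the 40 genes, *Pola1* has a word and a higher read count in both mutant lungs, *E2f2* is the gene that lay lower in both mutant lungs, and *Tyms* has no such word although its fold change was among the largest. The first capital run of *Mcm6* holds 2 overlapping words, 1 on each strand.
*Mcm6*, chr1:128359656-128359955, minus strand: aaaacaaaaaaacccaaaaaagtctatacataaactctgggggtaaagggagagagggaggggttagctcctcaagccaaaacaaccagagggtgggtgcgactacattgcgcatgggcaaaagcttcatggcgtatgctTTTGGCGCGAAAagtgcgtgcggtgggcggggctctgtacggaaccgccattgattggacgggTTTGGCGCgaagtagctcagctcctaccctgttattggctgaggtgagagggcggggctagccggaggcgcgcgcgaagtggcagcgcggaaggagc
*Pola1*, chrX:93632106-93632405, minus strand: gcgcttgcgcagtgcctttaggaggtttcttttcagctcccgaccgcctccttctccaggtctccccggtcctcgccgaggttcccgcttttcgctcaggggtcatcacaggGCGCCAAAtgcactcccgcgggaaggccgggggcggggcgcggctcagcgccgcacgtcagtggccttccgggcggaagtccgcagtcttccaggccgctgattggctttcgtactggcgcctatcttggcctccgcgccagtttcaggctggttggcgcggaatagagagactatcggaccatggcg
*E2f2*, chr4:136172024-136172323, plus strand: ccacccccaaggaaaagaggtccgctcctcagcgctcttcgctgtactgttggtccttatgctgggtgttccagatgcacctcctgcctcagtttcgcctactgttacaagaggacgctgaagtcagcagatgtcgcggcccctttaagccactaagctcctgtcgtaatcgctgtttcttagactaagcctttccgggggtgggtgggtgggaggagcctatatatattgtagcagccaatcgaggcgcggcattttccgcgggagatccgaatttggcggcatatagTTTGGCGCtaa
*Tyms*, chr5:30073576-30073875, minus strand: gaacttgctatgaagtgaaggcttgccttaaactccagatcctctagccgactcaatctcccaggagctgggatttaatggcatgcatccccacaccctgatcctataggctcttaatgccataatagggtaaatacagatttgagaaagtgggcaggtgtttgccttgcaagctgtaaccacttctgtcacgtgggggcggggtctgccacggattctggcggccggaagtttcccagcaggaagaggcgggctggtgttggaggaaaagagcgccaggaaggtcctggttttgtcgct
In these windows the *Pola1* word began at position -138 from the start and the *E2f2* word at position 39. Median log2 fold changes were 0.11 for the 17 genes with a word, 0.13 for the 23 without one and 0.12 for the 10 genes with no promoter in the table. A further RefSeq start of *E2f2* had none of the words.

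Read counts of the replication and G1/S genes were slightly higher in Myh10L458R/L458R lungs than in wild-type lungs as a group, while no single gene passed the test. The counts of the 50 genes added up to 3009 and 2856 CPM (read counts scaled to a common library size with TMM factors) in the wild-type lungs and to 3168 and 3152 CPM in the mutant lungs. The means were 2932 ± 108 CPM and 3160 ± 11.5 CPM (SD, n = 2 each), a difference of 7.77%. Both mutant sums lay above both wild-type sums. The log2 fold change, mutant over wild-type, was above 0 for 48 of the 50 genes, against 50.5% of all tested genes, and below 0 for *E2f2* and *Fen1*. Its median was 0.12 (8.80% higher), with a range from -0.20 to 0.33, beside a median of 0.00 over all tested genes. With edgeR's quasi-likelihood test and Benjamini-Hochberg adjustment over all tested genes, 0 of the 50 had an adjusted p under 0.05, where 1.64% of all tested genes did, 0.298% as higher and 1.34% as lower. DESeq2's Wald test also gave 0. The lowest edgeR adjusted p was 0.0818, and 3 genes, *Ccne2*, *Tyms* and *Exo1*, were under 0.1. At an unadjusted p under 0.05, 13 of the 50 were higher, against 7.52% of all tested genes, and 1 was lower, against 9.02%. Both mutant lungs lay above both wild-type lungs for 35 genes, against 23.9% of all tested genes, both lay below for *E2f2* alone, against 24.3%, and for the other 14 the genotypes overlapped. In whole lobes, a difference in the number of dividing cells and a difference in RNA per cell cannot be told apart.

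**Figure D1:**
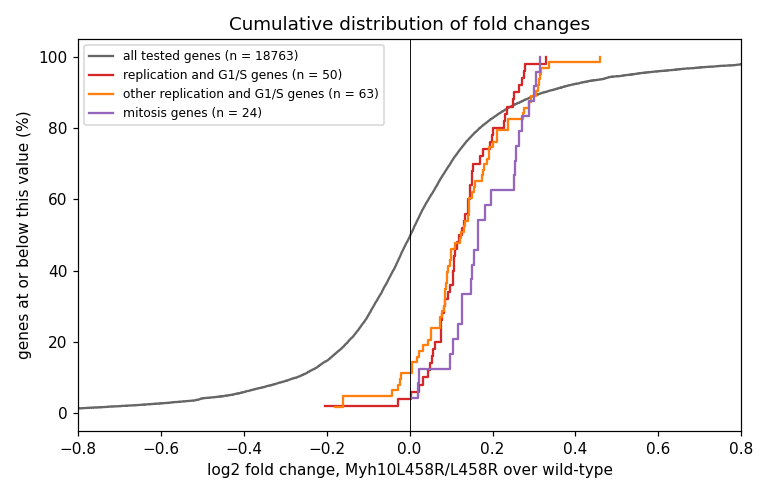
Cumulative distribution of log2 fold changes (mutant over wild-type, x axis) as the percentage of genes at or below each value (y axis), for all 18763 tested genes, the 50 replication and G1/S genes, 63 other replication and G1/S genes and 24 mitosis genes. The curve of the 50 genes is narrow and crosses its middle at 0.12, to the right of the wide curve of all tested genes.

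The wild-type lungs also differed from each other in their median over these genes, while the mutant lungs had nearly the same median. Over the 50 genes, the median log2 difference between wild-type lungs 1 and 2 was 0.08, and 38 genes were higher in wild-type lung 1. Mutant lung 1 exceeded wild-type lung 1 by a median of 0.08, with 44 genes higher, and wild-type lung 2 by 0.16, with 47 higher. Mutant lung 2 exceeded wild-type lung 1 by 0.10, with 43 higher, and wild-type lung 2 by 0.17, with 46 higher. The mutant lungs differed from each other by a median of 0.00, with 26 genes higher in mutant lung 1 and 24 in mutant lung 2. Single genes still differed between mutant lungs 1 and 2, such as *Pole* at 61.1 and 51.8 CPM and *E2f2* at 62.5 and 72.7 CPM. Wild-type lung 2 was thus the lowest of the 4, and without it the median log2 fold change was 0.09. Without wild-type lung 1 it was 0.16. With 2 lungs against 2, an exact two-sided permutation test of a single value cannot give a p below 0.333, so none was used.

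**Figure D2:**
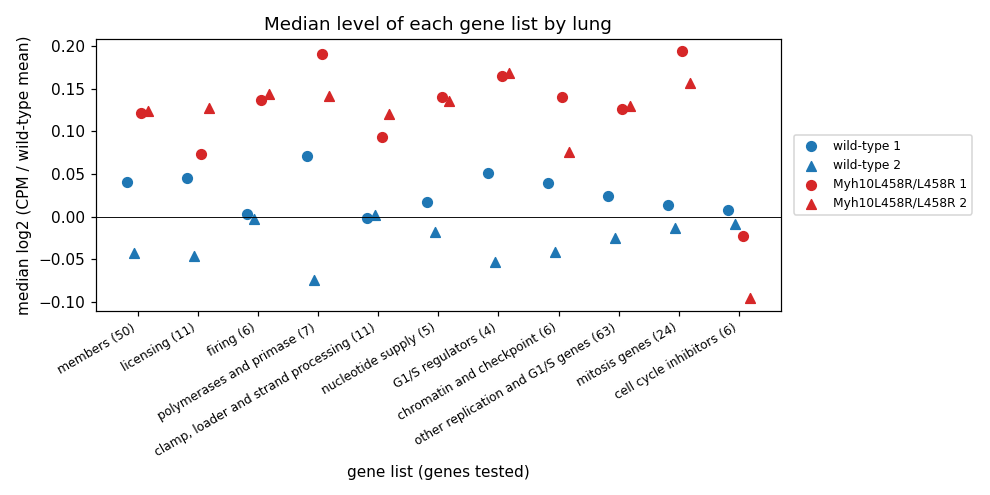
Median log2 ratio of each lung to the wild-type mean (y axis) for the 50 genes (marked members), their role groups and 3 comparison lists (x axis, number of genes tested in brackets), with 1 point per lung. For the 50 genes the mutant lungs sit together at 0.12 and the wild-type lungs at 0.04 and -0.04.

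Levels per length spanned a wide range among the 50 genes. In TPM (read counts divided by GENCODE exon length and scaled to a common total), *Pcna*, the sliding clamp, had the highest mean over the 4 lungs at 210.2 TPM, followed by the helicase subunits *Mcm6* at 154 TPM and *Mcm4* at 149 TPM. *Rrm2*, the regulated subunit of ribonucleotide reductase, followed at 117 TPM. At the low end were *Mcm10* at 14.1 TPM, the exonuclease *Exo1* at 10.3 TPM, the origin subunit *Orc1* at 7.75 TPM and the flap endonuclease *Fen1* at 2.51 TPM. The exon length joins the exons of all annotated transcripts of a gene, so the order between genes is approximate. For *Fen1*, 2039 of 2422 exonic bases lie under genes of the opposite strand, so its place is uncertain. The order between the genes was far wider than any difference between genotypes. Without *Fen1*, the smallest count of any gene in any lung was 117, and standard errors of the log2 fold changes ran from 0.05 to 0.13.

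**Figure D3:**
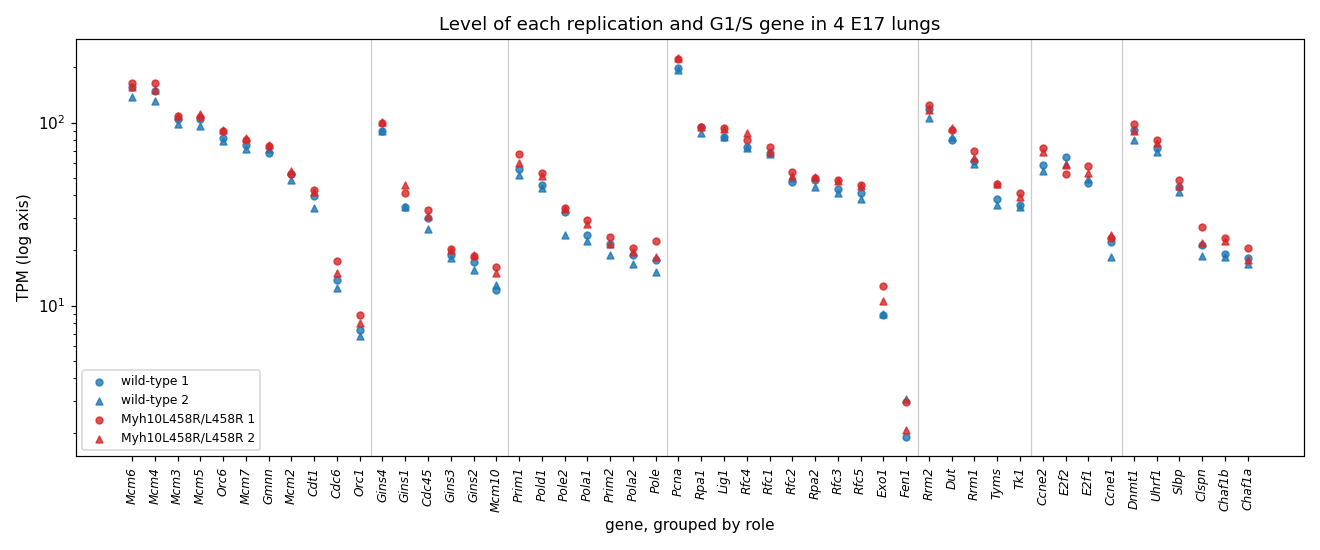
Level of each of the 50 genes in TPM (y axis, log axis) in each of the 4 lungs, with genes ordered by level within their role groups (x axis, grey lines between groups). *Pcna* is highest and *Fen1* lowest, and for most genes the 4 points lie close together compared with the distance between genes.

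Licensing genes, which load the helicase before S phase, had small differences. All 11 had a log2 fold change above 0, with a median of 0.10, and their sum was 6.26% higher in mutant lungs. For 6 of them the mutant lungs were higher without overlap, against 23.9% of all tested genes. *Cdc6*, the loader that joins the origin recognition complex to the helicase (chromosome 11, 98907801 to 98923940 on GRCm38, plus strand), had 18.5 and 16.9 CPM in wild-type lungs and 22.3 and 19.9 CPM in mutant lungs. The genotypes did not overlap, and the log2 fold change was 0.25 ± 0.086 (SE), with an adjusted p of 0.174 in edgeR's quasi-likelihood test. *Cdc6* was the 1 licensing gene with an unadjusted p under 0.05. The 6 subunits of the helicase itself, *Mcm2* to *Mcm7*, were nearer to 0. *Mcm4* had 136 and 122 CPM in wild-type lungs and 143 and 137 CPM in mutant lungs, and the genotypes did not overlap (log2 fold change 0.12, edgeR adjusted p 0.347), but its log2 fold change was 0.20 without wild-type lung 1 and 0.04 without wild-type lung 2. *Mcm7* had 85.1 and 82.2 against 87.3 and 91.7 CPM, also without overlap (0.10). *Mcm2* had 92.5 and 87.6 CPM in wild-type lungs against 89.1 and 94.9 CPM in mutant lungs. The genotypes overlapped, and the log2 fold change was 0.03, the lowest of the licensing genes. The remaining subunits *Mcm3*, *Mcm5* and *Mcm6* also overlapped, with log2 fold changes of 0.05, 0.08 and 0.08, and *Mcm6* was the licensing gene with the most reads, at 186 and 166 against 188 and 185 CPM. Without wild-type lung 2, the log2 fold changes of *Mcm3*, *Mcm5* and *Mcm6* were 0.02, 0.02 and 0.00, and without wild-type lung 1 they were 0.08, 0.14 and 0.17. Those of *Mcm2*, *Mcm5* and *Mcm7* without mutant lung 2 were -0.01, 0.03 and 0.06, and those of *Mcm2* and *Mcm5* without mutant lung 1 were 0.08 and 0.13.

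Genes of origin firing, whose products activate the loaded helicase, were higher without overlap between genotypes in 6 of 6 cases. Of all tested genes, 23.9% were higher without overlap. The median log2 fold change of the 6 firing genes was 0.14 and their sum was 11.8% higher in mutant lungs. *Gins1*, a subunit of the GINS complex (chromosome 2, 150905400 to 150931280, plus strand), had 13.4 and 13.6 CPM in wild-type lungs and 15.2 and 17.4 CPM in mutant lungs, a log2 fold change of 0.28 ± 0.095 (SE, edgeR adjusted p 0.168), which was 0.18 without mutant lung 2. *Mcm10*, which helps the helicase start unwinding (chromosome 2, 4989714 to 5012791, minus strand), had 23.8 and 25.9 CPM against 30.4 and 29.3 CPM, a log2 fold change of 0.26 ± 0.075 (SE, edgeR adjusted p 0.104). These were the 2 firing genes with an unadjusted p under 0.05. The other GINS subunits differed less, and *Gins3* was the lowest of the group at 13.1 and 12.8 against 13.5 and 13.8 CPM (0.08, and 0.17 with counts thinned to the smallest total). *Gins4* had the most reads, at 31.2 and 31.6 against 32.7 and 34.1 CPM (0.09).

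Polymerase and primase genes had the largest median of the role groups, 0.20, and their sum was 14.0% higher in mutant lungs. All 7 were above 0, and 6 were higher without overlap, against 23.9% of all tested genes. Of the 7, *Pola1*, *Pold1*, *Pole* and *Prim1* had an unadjusted p under 0.05, against 7.52% of all tested genes as higher. *Pole*, the catalytic subunit of the leading-strand polymerase epsilon, had 50.4 and 44.3 CPM in wild-type lungs and 61.1 and 51.8 CPM in mutant lungs (log2 fold change 0.25 ± 0.094 SE, edgeR adjusted p 0.202). Its log2 fold change was 0.13 without mutant lung 1 and 0.16 without wild-type lung 2. *Pola1*, the catalytic subunit of polymerase alpha, which makes the first stretch of DNA on each primer, lies on chromosome X (93304767 to 93632155, minus strand). It had 54.8 and 51.5 CPM in wild-type lungs and 62.9 and 61.8 CPM in mutant lungs, a log2 fold change of 0.23 ± 0.072 (SE, edgeR adjusted p 0.134). Its values did not separate the lungs by sex, which was mixed in both genotypes: *Xist* was at 3914 and 1.84 CPM in wild-type lungs and at 4.10 and 4455 CPM in mutant lungs, and the Y-linked *Ddx3y* at 0.436 and 181 against 198 and 0.0932 CPM. *Pold1*, of the lagging-strand polymerase delta, had the most reads of the group, at 56.4 and 55.6 against 63.0 and 63.0 CPM (0.17). *Pola2*, the accessory subunit of polymerase alpha, had the smallest fold change of the group, at 40.3 and 36.4 against 41.6 and 41.1 CPM (0.11, which was 0.18 without wild-type lung 1 and 0.04 without wild-type lung 2).

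Genes of the clamp, its loader and strand processing held both the highest fold change of the 50 and 1 of the values below 0. Of these 11 genes, 10 were above 0, with a median of 0.11 and a sum 6.16% higher in mutant lungs. The mutant lungs were higher without overlap for 6 of the genes, against 23.9% of all tested genes. *Exo1*, an exonuclease of mismatch repair and resection (chromosome 1, 175880581 to 175913489, plus strand), had 19.2 and 19.6 CPM in wild-type lungs and 26.3 and 22.5 CPM in mutant lungs. Its log2 fold change was 0.33 ± 0.088 (SE, edgeR adjusted p 0.086), and the mutant lungs lay further from each other than the wild-type lungs did, so that it was 0.22 without mutant lung 1. *Pcna* (chromosome 2, 132249162 to 132253314, minus strand), whose protein the study stained as a sign of proliferation, had 122 and 120 CPM in wild-type lungs and 131 and 137 CPM in mutant lungs. The genotypes did not overlap, and the log2 fold change was 0.15 ± 0.051 (SE, edgeR adjusted p 0.169). With PCNA among its stains, the study reported increased proliferation of epithelial and mesenchymal cells in mutant lungs between E17 and birth. That measure counts stained cells, whereas the values here are RNA of whole lobes. *Rpa1*, the large subunit of the single-strand binding protein and the gene of the group with the most reads, had 136 and 127 against 130 and 134 CPM, so that the mutant values fell between the wild-type ones (0.00). *Fen1*, which trims the flaps of lagging-strand fragments (chromosome 19, 10199132 to 10204169, minus strand), had only 1.18 and 1.94 CPM in wild-type lungs and 1.76 and 1.27 CPM in mutant lungs. Its log2 fold change of -0.03 had a standard error of 0.31. Of its 2422 exonic bases, 2039 lie under genes of the opposite strand, and reads overlapping several genes were left out of the counts, so its level is uncertain.

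Among the genes of nucleotide supply, *Tyms*, which encodes thymidylate synthase, had the largest difference. All 5 genes were above 0, with a median of 0.13 and a sum 9.35% higher in mutant lungs. The mutant lungs were higher without overlap for 4 of them, against 23.9% of all tested genes. *Tyms* (chromosome 5, 30058202 to 30073617, minus strand) had 59.8 and 55.6 CPM in wild-type lungs and 68.4 and 71.1 CPM in mutant lungs. Its log2 fold change was 0.27 ± 0.071 (SE, edgeR adjusted p 0.0836). The subunits of ribonucleotide reductase, which makes deoxyribonucleotides, differed less. *Rrm1* had 173 and 168 against 188 and 179 CPM without overlap (0.11, and 0.04 with the GC and length correction). *Rrm2* had 84.0 and 76.0 against 84.5 and 82.0 CPM with overlap (0.06, and 0.13 without wild-type lung 1).

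The 4 regulators of the G1/S passage did not lie on 1 side. *Ccne2*, a cyclin E that activates CDK2 (chromosome 4, 11191351 to 11204779, plus strand), had 52.6 and 49.3 CPM in wild-type lungs and 62.2 and 61.2 CPM in mutant lungs. Its log2 fold change of 0.28 ± 0.072 (SE) had the lowest adjusted p of the 50 genes, 0.0818 in edgeR's quasi-likelihood test. With the correction for GC content and exon length it was 0.15, with an adjusted p of 0.28. *Ccne1*, the other cyclin E, had 15.1 and 12.8 against 15.3 and 16.3 CPM (0.18, edgeR adjusted p 0.397), and the genotypes were apart by a margin far smaller than the distance between the wild-type lungs. Its log2 fold change was 0.31 without wild-type lung 1 and 0.07 without wild-type lung 2. *E2f1*, an activator of S phase genes, had 37.7 and 40.3 against 44.6 and 42.1 CPM (0.15, edgeR adjusted p 0.347), without overlap. *E2f2*, a related activator (chromosome 4, 136172394 to 136196057, plus strand), had 81.0 and 74.7 CPM in wild-type lungs and 62.5 and 72.7 CPM in mutant lungs. It was the 1 gene of the 50 for which both mutant lungs lay below both wild-type lungs, with a log2 fold change of -0.20 ± 0.081 (SE, edgeR adjusted p 0.233). Without mutant lung 1, the lower of the mutant lungs, the log2 fold change was -0.10, and without mutant lung 2 it was -0.32 with an edgeR adjusted p of 0.0133. For markers of erythroid cells, a cell type known to express *E2f2*, 8 of 8 had log2 fold changes below 0, 5 of them without overlap between genotypes. Of these, *Alas2* and *Hba-a2* had an adjusted p under 0.05. Over all tested genes, 49.5% were below 0, 24.3% were lower without overlap and 1.34% were lower at that adjusted p. The sum of the 8 markers was 4273 and 5366 CPM in wild-type lungs and 3770 and 4284 CPM in mutant lungs, so the sums overlapped. Between the wild-type lungs, *E2f2* was higher in lung 1 and the erythroid sum in lung 2. The part of erythroid cells in the *E2f2* value was not tested.

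Genes of chromatin assembly and the replication checkpoint were all above 0, with a median of 0.09 and a sum 7.90% higher in mutant lungs. The mutant lungs were higher without overlap for 4 of 6, against 23.9% of all tested genes. *Chaf1b*, a subunit of the chromatin assembly factor that places histones on new DNA (chromosome 16, 93883901 to 93906115, plus strand), had 22.9 and 22.3 CPM in wild-type lungs and 26.6 and 26.5 CPM in mutant lungs. Its replicates were close in both genotypes, and its log2 fold change was 0.24 ± 0.071 (SE, edgeR adjusted p 0.125). *Clspn*, claspin, an adaptor of the replication checkpoint, was the other gene of the group with an unadjusted p under 0.05, at 39.1 and 35.0 against 47.0 and 39.9 CPM (0.23). *Dnmt1*, the maintenance DNA methyltransferase, had the most reads of the group and overlapped between genotypes, at 172 and 154 against 177 and 168 CPM (0.08, which was 0.17 without wild-type lung 1 and 0.01 without wild-type lung 2). *Slbp*, which binds the stem-loop of histone mRNAs, had the smallest fold change, at 68.9 and 65.4 against 72.4 and 69.1 CPM (0.08, which was 0.04 without wild-type lung 2, 0.115 without wild-type lung 1 and 0.04 without mutant lung 1).

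**Figure D4:**
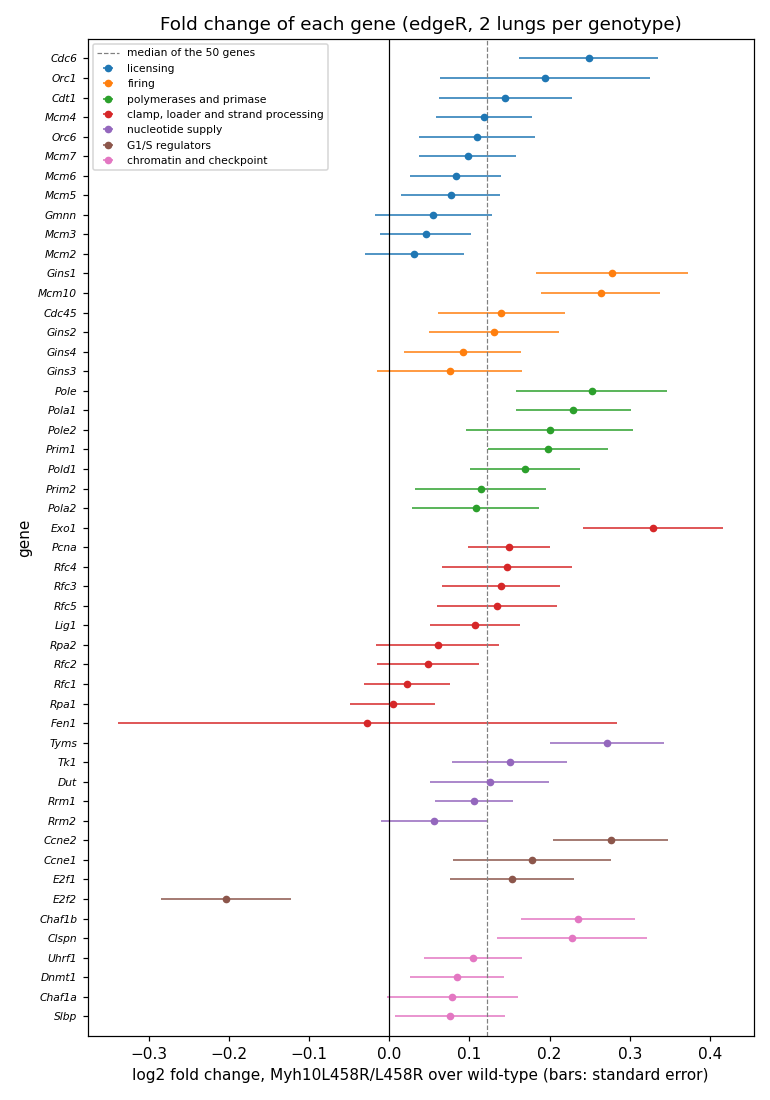
Log2 fold change, mutant over wild-type (x axis), with its standard error as bars, for each of the 50 genes (y axis), coloured by role. *Exo1* is highest at 0.33, *E2f2* lowest at -0.20, and the dashed line marks the median of 0.12.

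Some of the genes share exonic sequence with others. Exons of 15 of the 50 genes lie in part under a gene of the opposite strand. Over 10% of the 75-base windows, the read length, are shared with another transcript for 9 genes. The share was highest for *Fen1* at 79.9%, *Gins2*, a gene of the firing group, at 70.2% and *Chaf1a* at 47.2%. It was 23.7% for *Pcna* and 15.9% for *Ccne2*. The windows of *Pcna* match the pseudogene *Pcna-ps2*, those of *Ccne2* the opposite-strand *Ints8* and those of *Gins2* the opposite-strand *Gse1*. Whether the counting used strand is not given in the sources used here, so the counts of genes under an opposite-strand gene are uncertain, as are those of genes that share windows with a near copy. For the 33 genes without any exon overlap, the median log2 fold change was also 0.12, 32 were above 0, and 11 were higher at an unadjusted p under 0.05. Leaving out *Pcna* and *Uhrf1* as well, which share over 10% of their windows, gave a median of 0.12 over 31 genes, 30 of them above 0.

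Other genes of the cell cycle give the setting of these values. Of 63 other replication and G1/S genes, 56 had a log2 fold change above 0, with a median of 0.12, and 0 had an adjusted p under 0.05. At an unadjusted p under 0.05, 26 were higher and 1 lower. Over all tested genes, 50.5% were above 0, and 7.52% were higher and 9.02% lower at that unadjusted p. At an adjusted p under 0.05, 0.298% of all tested genes were higher and 1.34% lower. Among the 63, *Dscc1*, a part of the clamp loader for sister chromatid cohesion, had the lowest adjusted p (edgeR, 0.0575). It had 8.86 and 9.08 CPM in wild-type lungs and 11.7 and 12.9 CPM in mutant lungs (log2 fold change 0.46). Of 24 mitosis genes, 24 were above 0, with a median of 0.16, and 5 rose past an edgeR adjusted p of 0.05. These were the spindle motor *Kif11* (0.30, adjusted p 0.0196), the spindle protein *Nusap1* (0.29, 0.022), the centromeric histone *Cenpa* (0.26, 0.0313), the checkpoint kinase *Bub1* (0.31, 0.0393) and the kinetochore protein *Cenpf* (0.25, 0.0438). *Kif11* had 182 and 174 CPM in wild-type lungs and 228 and 210 CPM in mutant lungs, again without overlap. Whether the mitosis genes differed more than the replication genes was not tested. Of 7 cell cycle inhibitors, 6 were tested, with a median of -0.05, and *Cdkn1a*, which encodes the CDK inhibitor p21, fell. It had 18.5 and 17.6 CPM in wild-type lungs and 12.9 and 13.2 CPM in mutant lungs, a log2 fold change of -0.47 ± 0.085 (SE, edgeR adjusted p 0.0198).

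Markers of several cell types of the lobe lay lower in mutant lungs, and their part in the values of the replication genes was not tested. The 7 epithelial markers added up to 7128 and 6957 CPM in wild-type lungs and to 5063 and 5949 CPM in mutant lungs. *Sftpc* made up most of this sum, at 5812 and 5627 against 3874 and 4748 CPM (edgeR adjusted p 0.173). Of the 7 markers, 6 were below 0, *Epcam* and *Nkx2-1* overlapped between genotypes, and *Krt8* and *Cdh1* were past an adjusted p of 0.05. The 7 mesenchymal markers added up to 5165 and 5273 against 5152 and 4984 CPM, with 0 of 7 past that threshold and 0 at an unadjusted p under 0.05. The 6 endothelial markers lay at 1534 and 1485 against 1419 and 1359 CPM, 6 of 6 below 0, 0 past the threshold and 4 at an unadjusted p under 0.05. The 6 leukocyte markers lay at 293 and 272 against 214 and 247 CPM. Of these, 4 were below 0, 3 overlapped between genotypes, and *Mrc1* and *Cd68* were above 0. *Lyz2* held most of the sum, at 186 and 173 against 117 and 148 CPM, and was the 1 past the threshold. Cardiac muscle markers, at 211 and 261 against 167 and 154 CPM, had 4 of 5 tested genes past the threshold, all lower. Mesothelial markers lay at 303 and 330 against 218 and 269 CPM. *Msln* held most of that sum, at 207 and 224 against 129 and 169 CPM, and was past the threshold. *Upk3b* overlapped between genotypes, and *Wt1* was higher in both mutant lungs. Liver markers stayed under 9 CPM in every lung. Markers of lung epithelium and mesenchyme were thus present in all 4 lobes. Total counts were 23156026 and 19116971 in wild-type lungs and 27573824 and 32055306 in mutant lungs, so the mutant libraries were the deeper ones, and replicates differed by more than counting error (chi-square per degree of freedom 2.92 in wild-type and 5.65 in mutant lungs without chromosomes X and Y, and 8.06 and 13.7 with them, the replicates differing in sex). Of the 18763 tested genes, 56 were higher and 252 lower at an adjusted p under 0.05. As shares of all tested genes, 49.5% were below 0, 24.3% were lower without overlap and 9.02% were lower at an unadjusted p under 0.05.

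The direction of the group value held across the ways of processing the counts that were tried, while the number of genes past the adjusted threshold moved between 0 and 7. The median log2 fold change of the 50 genes stayed between 0.09 and 0.16, with at least 46 genes above 0 each time. Leaving out mutant lung 2 gave the most genes past the threshold, 6 higher (*Ccne2*, *Cdc6*, *Clspn*, *Exo1*, *Mcm10* and *Pole*) and 1 lower (*E2f2*), in a comparison where 1826 of all tested genes passed. Leaving out mutant lung 1 gave 1 gene, *Tyms*. Here the lung left alone is assumed to vary as the pair of the other genotype does.

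**Figure D5:**
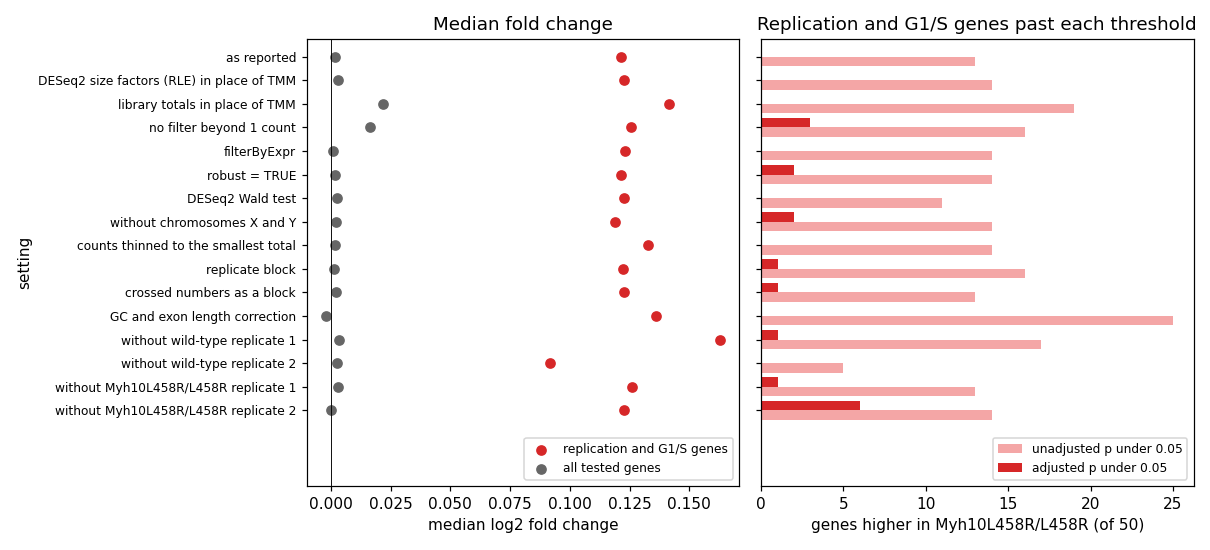
Left, median log2 fold change (x axis) of the 50 genes and of all tested genes under each way of processing (y axis). Right, number of the 50 genes higher in mutant lungs at an unadjusted and at an adjusted p under 0.05 (x axis), 49 genes where chromosomes X and Y were left out.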

How the data were processed

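The authors deposited raw read counts per Ensembl gene for the 4 lungs. Before deposition, they trimmed the 75-base single-end reads (stranded mRNA kit) using Reaper, mapped them to GRCm38 by STAR 2.4.0a and assigned them to exons by featureCounts 1.5.1. Each count is thus of reads with a single place in the genome and a single gene there. The strand setting of the counting is not given in the sources used here. Columns of the authors' own comparison were not used. Lungs were grouped by genotype from the labels.

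The 18763 genes whose counts averaged 5 or more entered the quasi-likelihood test of edgeR 4.0.16 (R 4.3.3), without its robust option, after TMM scaling. Benjamini-Hochberg adjustment covered all of them. CPM use the TMM-scaled totals, and TPM use GENCODE exon lengths. The test was run on simulated counts drawn with the spread estimated from these data. It recovered 75 of 100 genes changed by a log2 fold of 0.5 and 100 of 100 changed by 1. The changed genes were drawn from those with a mean of at least 50 counts, so recovery below that level is unknown. Of the 186 calls of the test, 11 were false. Changes as small as the median of the 50 genes, 0.12, were not simulated, so recovery at that size is unknown. The 50 genes, the comparison lists and the markers were chosen with earlier results of these data known, so no list was tested as a set. Genes named with values were those past an adjusted p of 0.05, the 5 lowest unadjusted p in each direction, the highest and lowest fold change and the most reads in each role group, *Pcna*, *Pola1*, the helicase subunits and the G1/S regulators. Other genes named to complete a count were chosen after their values were seen.

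Alternatives were DESeq2 size factors or library totals, other filters, robust = TRUE, the Wald test of DESeq2 1.42.0, leaving out chromosomes X and Y or each lung in turn, counts thinned to the smallest total, an offset for GC content and gene length (loess span 0.3), an adjusted p of 0.1 and the replicate number as a block.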

Additional observations from a re-analysis of the deposited data

How the results depend on the processing

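Past an adjusted p of 0.05, 0 of the 50 genes were called with edgeR as reported, with DESeq2 size factors, library totals, filterByExpr, thinned counts, the GC and length correction or DESeq2's Wald test. There were 3 called as higher without a filter (*Ccne2*, *Exo1* and *Tyms*), 2 with robust = TRUE and 2 without chromosomes X and Y (*Ccne2* and *Tyms* in both), and 0 to 6 higher and 0 to 1 lower when a lung was left out. Over all tested genes, calls as higher numbered 56 as reported, 474 of 28549 without a filter, 135 with robust = TRUE and 90 without chromosomes X and Y. They numbered 117 with the GC and length correction and 244 with the replicate number as a block. The share over all tested genes at an unadjusted p is given for the fit as reported only. Of the 50 genes, 3 were higher at an adjusted p under 0.1, and at an unadjusted p under 0.05, 13 were higher and 1 lower. With the GC and length correction 25 were higher at an unadjusted p under 0.05, and 5 to 17 when a lung was left out. The median log2 fold change then ran from 0.0916 to 0.163, and genes lower without overlap numbered 1 to 2. Same-numbered lungs share only a number in the labels, and by *Xist* they differ in sex. Their deviations correlated at -0.214 over 18763 genes and at -0.0187 without chromosomes X and Y. The replicate number as a block called 1 gene, *Exo1*. The crossed numbers as a block, added after the data had been seen, joined lungs of the same sex by *Xist*. This block called 1 gene, *Tyms*, as higher, with 95 called higher over all tested genes. Of 434 comparisons of a named gene with an alternative, 410 kept direction and side of the threshold, 16 newly passed it and 8 changed sign. The sign changed for *Fen1*, at 0.0303 with the GC and length correction and from -0.37 to 0.35 when a lung was left out, and in the same leave-outs for *Mcm2* (-0.0133 to 0.0779), *Rpa1* (-0.0403 to 0.0511) and *Rrm2* (-0.0135 to 0.131). The causes were not tested. With 2 lungs per genotype, the spread between lungs is estimated from few samples, and depth limits *Fen1*, which had 27 to 49 counts a lung.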
